A study of Homo sapiens with 2 samples.

Results

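The presynaptic vesicle release machinery was followed as 38 genes, chosen by symbol and each found once among the 61487 genes counted in both libraries. They comprise 7 SNAREs and SNARE regulators, 5 synaptotagmins, 10 active zone and priming genes, 11 genes of vesicle proteins and 5 genes of vesicle endocytosis. The rule uses their symbols and no measured value, but these genes and the lists set beside them were chosen with earlier results of these data known. The study asked what the floor plate transcription factor FOXA2 does in the development of human serotonin neurons (SNs). A question that its single-cell libraries address is how SNs from FOXA2 knockout cells differ from SNs from cells with the gene intact. Both libraries came from the established human embryonic stem cell line H9 (WA09) carrying an EGFP reporter knocked in at TPH2, the gene of the brain enzyme that limits serotonin synthesis, and cells with EGFP were collected by fluorescence-activated sorting after 42 days. The WT-labelled library had no further edit, and the FKO-labelled library came from a line derived from 1 picked FOXA2 knockout clone with a frameshift made by CRISPR. With 1 library per genotype, a difference between genotypes cannot be told apart from a difference between 2 differentiations or 2 sorts, and no p-value is given.

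Neurotransmitter release rests on a protein cycle at the axon terminal. Active zone scaffolds hold vesicles near calcium channels and prime them, SNARE proteins on the vesicle and on the plasma membrane zip together to fuse them, and synaptotagmins sense the calcium that triggers this step while complexins clamp it. Synapsins and RAB3 proteins tether and position vesicles, and dynamin, synaptojanin and amphiphysin retrieve the membrane afterwards. Serotonin neurons use this machinery for release at synapses and from varicosities along the axon.

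The WT-labelled library held 11052 barcodes and 123064653 UMIs (unique molecular identifiers, 1 for each captured transcript), and the FKO-labelled library 8806 barcodes and 70588747 UMIs. After filtering, 5721 cells (51.8% of barcodes) with a median of 12442 UMIs and 6980 cells (79.3%) with a median of 6925.5 UMIs were kept, and 40.4% and 13.5% of barcodes exceeded the limit on mitochondrial UMIs. The libraries shared 21 barcode sequences, 5 of them among kept cells. The serotonergic and neuronal markers were present: FEV, the transcription factor that marks the serotonergic lineage, had a UMI in 5603 of 5721 and 6350 of 6980 kept cells, and the neuronal gene STMN2 stood at 4387 and 5666 UMIs per 1000000 pooled UMIs (CPM). Of 6 neuronal genes, DCX (918 and 2242 CPM) and RBFOX3 (8.85 and 22.7 CPM) were called higher in the FKO-labelled library by the rule given below, at relative log2 ratios of 0.82 and 0.89 (0.46 and 0.35 against genes of like length, not called). RBFOX3 reached that rule's limit of 10 CPM through the FKO-labelled library only, so that it had to be higher there to be tested. Markers of other cells were present and unequal. Of the neural progenitor genes, VIM had 719 and 934 CPM, SOX2 107 and 83.1 CPM and NES 70.3 and 53.4 CPM. Of 5 genes of collagen-producing cells, COL1A1, COL1A2 and COL3A1 were higher in the FKO-labelled library, with 1.94 and 76.3, 2.73 and 84.3, and 12.1 and 41.5 CPM, while LUM had 12.6 and 15.5 CPM and DCN 7.85 and 10.1 CPM. SOX10 had 0 and 6.87 CPM, and the astrocyte gene GFAP 0.0395 and 0.207 CPM; the part of such cells in the results was not tested. FOXA2 itself had 4.11 CPM in the WT-labelled library and 22.3 CPM in the FKO-labelled library, which goes against the label at the level of RNA, but a count of 3' ends does not read a small frameshift and so checks nothing here.

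To show what a known regulatory sequence looks like at these genes, promoters were searched for the core of the RE1 element, which REST, a repressor of neuronal genes outside neurons, binds, written here as CAGCACC and GGACAG with 2 free bases between them. Promoter sequences from RefSeq on GRCh38.p14, spanning 250 bases before to 50 bases after each start, matched 32 of the 38 members. On either strand the exact letters occurred in 18 of 35116 promoters (0.0513%), and with up to 2 mismatches in 2.03% of them. Among the members SYN1 held an exact match, whose first base lies 231 bases before the start, and SV2C and SYNJ1 held matches with 2 mismatches, 108 and 70 bases before the start. The stretches are shown 5′ to 3′ on the strand of the gene with the 15 bases of the match in capitals, since they let the 3 versions of the element be compared. They lie at chrX:47620061-47620101 (minus strand), chr5:76083262-76083302 (plus strand) and chr21:32728437-32728477 (minus strand), in that order.
SYN1: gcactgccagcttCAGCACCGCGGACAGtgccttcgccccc
SV2C: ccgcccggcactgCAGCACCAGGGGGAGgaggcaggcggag
SYNJ1: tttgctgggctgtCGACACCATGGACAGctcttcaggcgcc
The core letters CCGGAAGT, which ETS factors such as FEV bind, were in 4.14% of the 35116 promoters and in 0 of the 32 matched members. A match describes letters only, and its absence says nothing about binding.

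The machinery was dominated by few genes. Over kept cells the 38 members together took 4850 CPM in the WT-labelled library and 8023 CPM in the FKO-labelled library, and without SYT1, the main calcium sensor of fast release (chr12:78863993-79452008), 2731 and 5140 CPM. SYT1 alone had 160880 and 167370 UMIs, or 2120 and 2883 CPM. VAMP2, the SNARE of the vesicle membrane, followed with 43037 and 44765 UMIs, or 567 and 771 CPM. The order below them differed between the libraries: RAB3A, SYT4 and RAB3C came next in the WT-labelled library at 204, 201 and 182 CPM, and SYT4, RAB3C and PCLO in the FKO-labelled library at 402, 391 and 372 CPM. At the other end, VAMP1, SYNPR, SV2B and SV2C stayed under 10 CPM in both libraries, with at most 2.38 CPM each, and were left out of the ratios, which leaves 34 members. The chemistry reads from the 3' end of transcripts, and CPM were not divided by gene length.

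**Figure D1:**
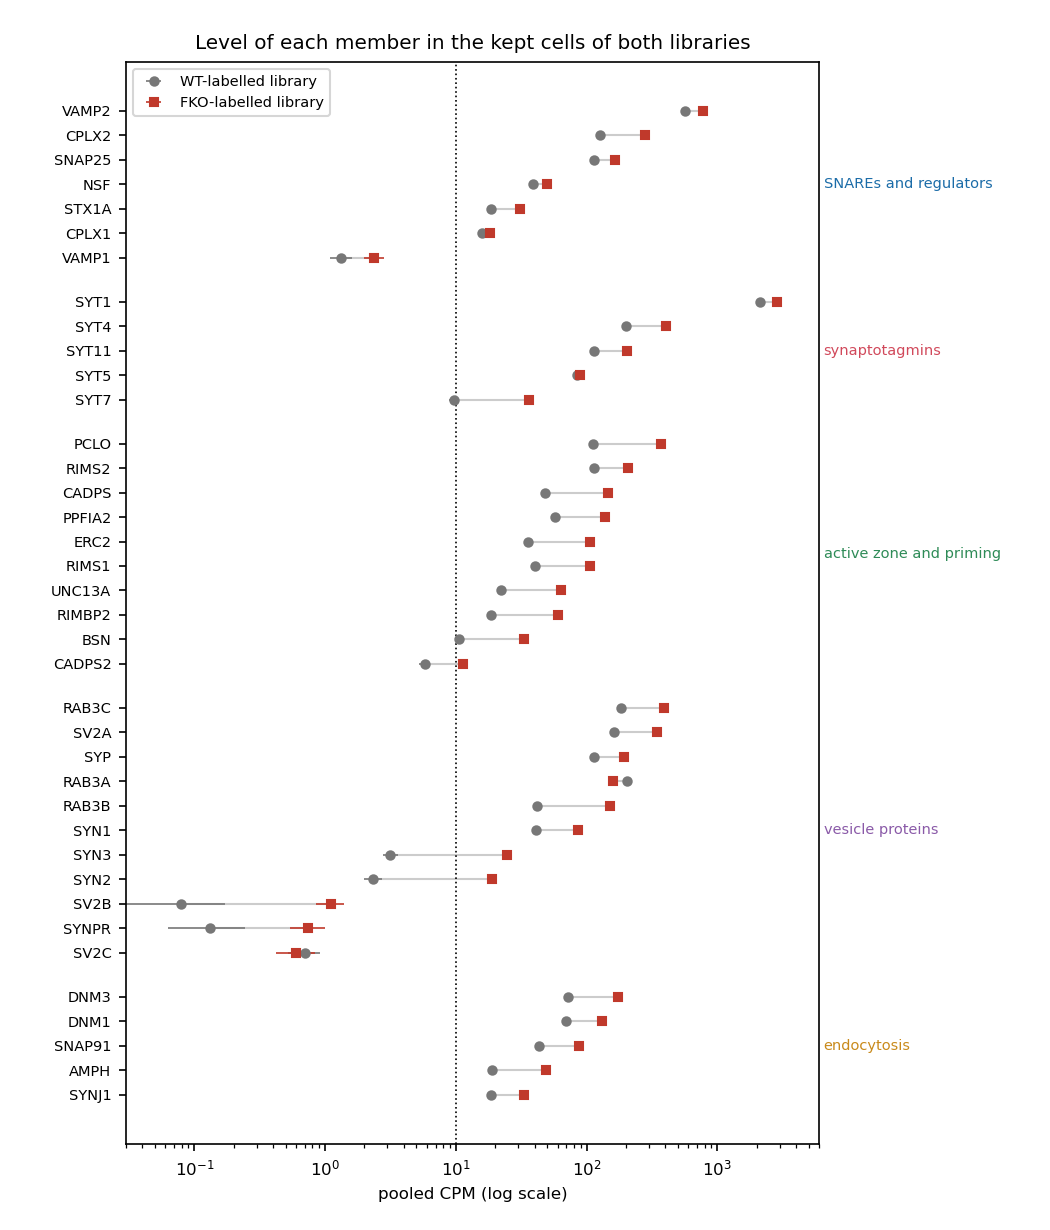
Pooled CPM (log axis) of the 38 members in the kept cells of the WT-labelled library (grey circles, 5721 cells) and of the FKO-labelled library (red squares, 6980 cells), by class, with exact 95% counting intervals as bars and a dotted line at 10 CPM. RAB3A is the only one of the 34 members above the line in either library that has the higher CPM in the WT-labelled library, and SYN2 and SYN3 show the widest gaps among those 34.

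Because 1 cell holds few transcripts of most members, cells were also thinned to 2000 UMIs each, so that both libraries were read at 1 depth. A median of 5 members (quartiles 4 and 7) then had a UMI in a cell of the WT-labelled library, against 8 (quartiles 7 and 10) in the FKO-labelled library. SYT1 had a UMI in 92.9% and 93.9% of thinned cells and VAMP2 in 66.1% and 73.7%. The libraries parted more at PCLO, with 19.6% and 48.5%, and RAB3C, with 28.5% and 50.9%. SV2A was seen in 25.5% and 47.0%, whereas RAB3A went the other way with 33.0% and 26.0%. SYN2 was seen in 0.282% and 3.74% of thinned cells and SYN3 in 0.511% and 4.12%. In unthinned cells, where depth differs, PCLO had a UMI in 64.4% and 83.1% of cells and RAB3C in 80.1% and 83.5%. Free RNA was gauged in 56 FEV-negative barcodes of the FKO-labelled library with at least 10 collagen UMIs (median 7263.5 UMIs). They were taken to be low in this machinery. There SYT1 had a UMI in 10.7%, VAMP2 in 23.2%, PCLO in 5.36%, RAB3C and SV2A in 7.14% each and RAB3A in 3.57% of thinned cells. SYN2 and SYN3 had a UMI in 0%, where 0 of 56 allows a share of up to 5.36%. Unthinned, SYT1 had a UMI in 44.6% and VAMP2 in 73.2% of them. The rule of 0 FEV UMIs leaves out barcodes with free FEV RNA, so the gauge can read too low. Whether these UMIs are free RNA or the cells' own was not tested. These barcodes had a median of 1 member per thinned cell. The WT-labelled library had 0 such barcodes.

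**Figure D2:**
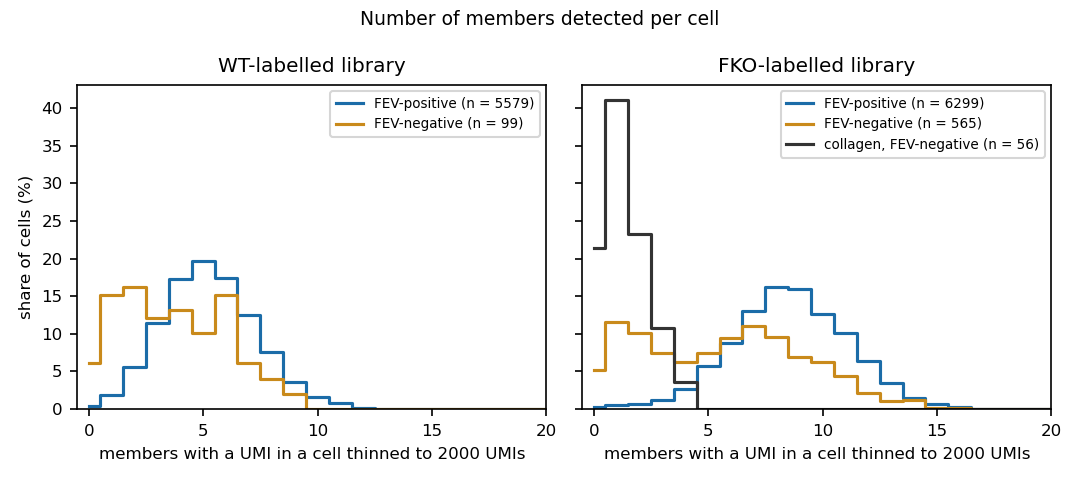
Share of cells (%) against the number of members with a UMI in a cell thinned to 2000 UMIs, for FEV-positive and FEV-negative barcodes of each library and for the 56 collagen barcodes of the FKO-labelled library. The FEV-positive cells have a median of 5 members in the WT-labelled library and of 9 in the FKO-labelled library, and the collagen barcodes a median of 1.

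For the comparison of the libraries, a gene's log2 ratio of CPM in the FKO-labelled library over that labelled WT was taken relative to the median of the 9669 genes that reached 10 CPM in either library. That median was 0.47 on the log2 scale, so a relative log2 ratio of 0 is a CPM that moved with the typical gene. A gene was called where its ratio lay at least 1.5-fold from the median and its exact 95% interval, which covers counting error only, excluded it. Of the 34 members, 17 were called higher in the FKO-labelled library, 1 lower and 16 neither. Over all genes tested 17.9% were called higher and 23.3% lower. The members' median relative log2 ratio was 0.60, against 0 for all genes by construction.

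Of the 10 active zone genes, whose median length is 489 kb, 8 were called higher in the FKO-labelled library, where 47.6% of all genes of at least 300 kb were. With the median of genes of like length as zero, as given below, 6 or 4 of the 10 were called. PCLO, the giant scaffold Piccolo (chr7:82754013-83162930), had 8524 UMIs (112 CPM) in the WT-labelled library and 21574 (372 CPM) in the FKO-labelled library, a relative log2 ratio of 1.25 (interval 1.22 to 1.29). Its partner BSN, Bassoon, had 10.5 and 33.1 CPM (1.18). RIMBP2, which ties calcium channels to the release site, had 18.5 and 60.6 CPM (1.24). These scaffolds thus stood about as far above the typical gene as each other. The ELKS scaffold ERC2 had 35.4 and 106 CPM (1.11), and the dense-core vesicle priming factor CADPS 48.2 and 145 CPM (1.11). UNC13A, the factor that opens syntaxin for SNARE assembly, had 22.1 and 63.2 CPM (1.05). RIMS1, a RAB3 effector that anchors vesicles and channels, had 40.2 and 106 CPM (0.92), and the liprin PPFIA2 57.2 and 139 CPM (0.81). Both genes of the class that were not called are paralogs of called ones: RIMS2 had 115 and 206 CPM (0.37), and CADPS2 5.77 and 11.4 CPM (0.51).

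Of the 6 SNAREs and regulators tested and the 5 synaptotagmins, 1 each was called higher, a share near the 17.9% of all genes. CPLX2, a complexin, was the called gene of the former, with 9696 UMIs (128 CPM) and 16355 UMIs (282 CPM), a relative log2 ratio of 0.67 (interval 0.63 to 0.70). The plasma membrane SNARE SNAP25 had 114 and 164 CPM (0.06), and its partner STX1A 18.7 and 31.2 CPM (0.27). VAMP2 lay at -0.03, and NSF, the ATPase that takes spent SNARE complexes apart, at -0.11 with 38.7 and 49.7 CPM. CPLX1, the other complexin, had 15.9 and 18.1 CPM (-0.29). Among the synaptotagmins, SYT7, a slow calcium sensor of high affinity, was called, with 730 UMIs (9.62 CPM) and 2124 UMIs (36.6 CPM), a relative log2 ratio of 1.45 (interval 1.33 to 1.58). SYT1, the most abundant member, lay at -0.03, but it is a long gene (588 kb) and lay at -0.57 against the median of genes of at least 300 kb. SYT4, a synaptotagmin of dense-core vesicles, had 201 and 402 CPM (0.53) and SYT11 114 and 204 CPM (0.37), while SYT5 had 84.4 and 89.5 CPM (-0.39).

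Vesicle proteins held both the highest relative ratios and the 1 gene called lower. SYN2 had 177 UMIs (2.33 CPM) in the WT-labelled library and 1096 (18.9 CPM) in the FKO-labelled library, a relative log2 ratio of 2.54 (interval 2.31 to 2.78). SYN3 had 240 UMIs (3.16 CPM) and 1425 UMIs (24.5 CPM), a relative log2 ratio of 2.48 (interval 2.28 to 2.69). Both reached the limit of 10 CPM through the FKO-labelled library only, as did SYT7 and CADPS2, so that they had to be higher there to be tested. SYN1, the main synapsin, had 41.3 and 85.4 CPM (0.57) and missed the threshold narrowly. Each synapsin gene holds a TIMP gene on the opposite strand, and whether the counting used strand is not given in the sources used here: TIMP1, within SYN1, had 112 and 36.3 CPM, TIMP4, within SYN2, 3.85 and 2.53 CPM, and TIMP3, within SYN3, 2.04 and 8.03 CPM. The small GTPases of the RAB3 family, which carry vesicles to the active zone, split. RAB3A (chr19:18196784-18204074) had 15480 UMIs (204 CPM) in the WT-labelled library and 9220 (159 CPM) in the FKO-labelled library, a relative log2 ratio of -0.83 (interval -0.87 to -0.80), but short genes as a whole lay low, and against the median of genes under 10 kb it lay at -0.19. RAB3B had 3146 UMIs (41.5 CPM) and 8842 UMIs (152 CPM), a relative log2 ratio of 1.40 (interval 1.35 to 1.46). RAB3C had 182 and 391 CPM (0.63). The vesicle glycoprotein SV2A was called higher with 162 and 346 CPM (0.62), and SYP, synaptophysin, was not, with 114 and 192 CPM (0.28).

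Of the 5 endocytosis genes, DNM3, a dynamin, had 71.6 and 175 CPM (0.82) and AMPH, amphiphysin, 19.0 and 48.6 CPM (0.88), and both were called higher. Both span over 100 kb, a length at which 34.2% of all genes were called higher, and 0 of the 5 endocytosis genes were called with either zero point by length. The clathrin adaptor SNAP91 had 43.2 and 87.1 CPM (0.54), the dynamin DNM1 70.0 and 131 CPM (0.43), and the lipid phosphatase SYNJ1 18.4 and 33.2 CPM (0.38). All 5 lay above the typical gene, 3 of them within 1.5-fold of it.

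The ratio moved with gene length over all genes, and this touches each call above. In the annotation used (GENCODE release 29 on GRCh38), genes under 10 kb had a median relative log2 ratio of -0.64 and 8.65% were called higher, and genes of at least 300 kb a median of 0.54 with 47.6% called higher. The members are long: 17 of the 34 span at least 100 kb. Of these long members 12 were called higher and 0 lower, where 34.2% and 7.01% of the 2184 long genes were. Of the 17 shorter members 5 were called higher and 1 lower, where 13% and 28.2% of the 7440 shorter genes were. Across genes, which are not independent and share both libraries, Spearman's rho between length and ratio was 0.45 for the 34 members and 0.45 for 9624 genes. With the median of genes on the same side of 100 kb as zero, 14 members were called higher and 1 lower, where 17.6% of all genes were called higher, and RIMS1, PPFIA2, RAB3C, DNM3 and AMPH lost their call while SYT4 and SYN1 gained one. With the median of 5 length ranges (limits at 10, 30, 100 and 300 kb) as zero, 11 were called higher and 0 lower, where 16.6% of all genes were called higher (the share called lower was recorded for neither zero point). The same 5 genes lost their call there, as did CPLX2 (0.56), ERC2 (0.57), CADPS (0.57) and RAB3A (-0.19), while VAMP2 (0.61) and SYT4 (1.17) gained one. On that scale PCLO lay at 0.71, SYT7 at 1.35, RAB3B at 1.30, SYN2 at 2.19 and SYN3 at 1.94. Among RNAs that stay in the nucleus, NEAT1 had 28.7 and 164 CPM (2.04) and KCNQ1OT1 166 and 609 CPM (1.41), whereas MALAT1 had 56750 and 58040 CPM (-0.44). Cell Ranger counts intronic reads by default from version 7.0, but whether they were counted here is not stated, and the part of nuclear RNA and intronic reads in these ratios was not tested.

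**Figure D3:**
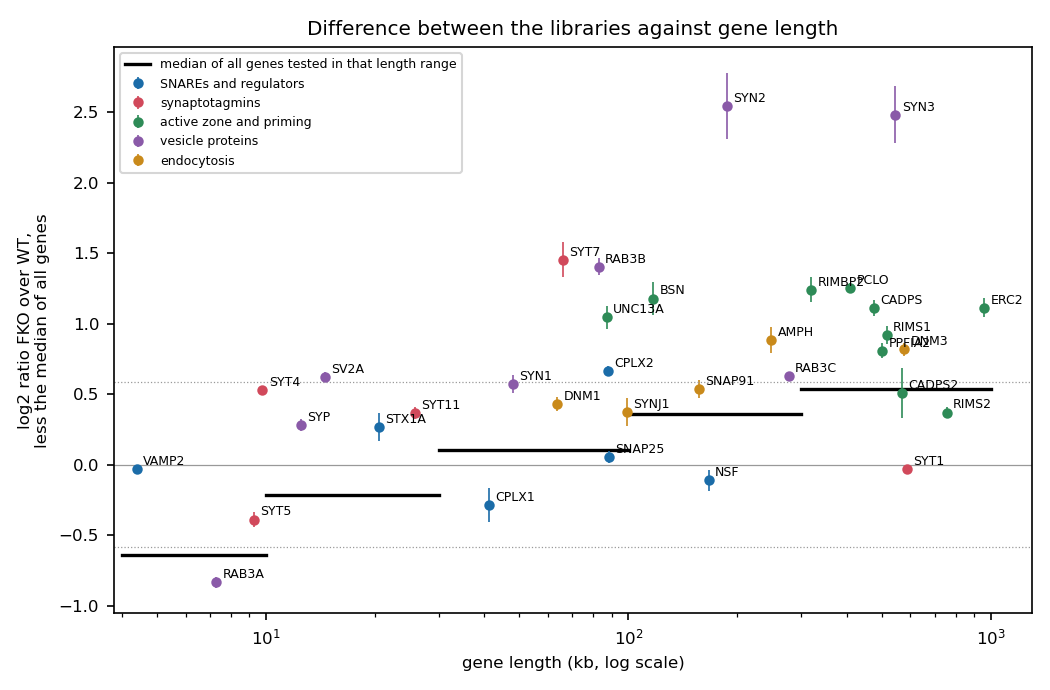
Relative log2 ratio of the FKO-labelled library over that labelled WT (0 is the median of all genes, dotted lines mark 1.5-fold) against gene length in kb (log axis) for the 34 members tested, with exact 95% counting intervals, and the median of all genes in 5 length ranges as black lines. That median runs from -0.64 under 10 kb to 0.54 from 300 kb, and SYN2, SYN3, SYT7 and RAB3B lie farthest above it.

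Restricting both libraries to FEV-positive barcodes gave nearly the same picture, with 19 of 34 members called higher and 1 lower, where 17.9% and 23.6% of 9606 genes were. These barcodes were 5603 of 5721 and 6350 of 6980 kept cells, so pooled values could move little and the likeness carries little information. The 2 genes added were SYN1 (0.62) and SNAP91 (0.59). Among FEV-negative barcodes (118 and 630), 10 of 33 members were called higher and 4 lower, against 14.5% and 21% of 10394 genes. These barcodes held different cells in the libraries: collagen genes summed to 309 and 1422 CPM, floor plate genes to 425 and 279 CPM, cycling genes to 139 and 316 CPM and genes of the oligodendrocyte lineage to 0 and 65.0 CPM, and the part of this in the calls was not tested. There 7 of the 10 active zone genes were called higher, among them RIMS2 (1.23) and RIMBP2 (1.64, from 5 UMIs in the WT-labelled library). CPLX1 (-1.95), RAB3A (-0.92), NSF (-0.80) and SYT5 (-0.67) were called lower. Of the called members, RIMBP2 (5.22 and 22.4 CPM), BSN (7.31 and 24.2 CPM) and SYN3 (6.27 and 19.9 CPM) reached 10 CPM in the FKO-labelled library only. CPLX1 (23.0 and 8.15 CPM) reached it in the WT-labelled library only. Each of these had to be higher in that library to be tested.

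Within families of paralogs, where the UMIs of 2 or more genes are set against each other in the same cells, the division of the family's UMIs differed between the libraries. A family here holds only the members listed, without paralogs outside them such as RAB3D and SYT13. SYN1 took 88.3% of synapsin UMIs (exact Clopper-Pearson 95% interval 87.2% to 89.3%) in the WT-labelled library and 66.3% (65.2% to 67.4%) in the FKO-labelled library, with SYN3 at 6.76% and 19.1% and SYN2 at 4.98% and 14.7%. In the RAB3 family, RAB3A took 47.7% (47.2% to 48.3%) and 22.6% (22.2% to 23.0%), RAB3B 9.70% and 21.7%, and RAB3C 42.6% and 55.7%. RAB3A thus had the largest share of this family in the WT-labelled library and RAB3C in the FKO-labelled library. These paralogs differ in length (7.29 kb for RAB3A and 277 kb for RAB3C), with which the ratio moves: against the median of their length ranges they lay at -0.19 and 0.27, in place of -0.83 and 0.63. Smaller shifts were seen for RIMS1, from 25.9% to 33.9% of its pair with RIMS2, and for CPLX2, from 88.9% to 94.0% of the complexins. DNM3 went from 50.6% to 57.3% of its pair with DNM1, but it spans 577 kb and DNM1 63.6 kb. Against the median of their length ranges they lay at 0.28 and 0.33, so that DNM3 no longer lay above DNM1. Other pairs were settled on 1 gene in both libraries: VAMP2 took 99.8% and 99.7% of its pair with VAMP1, SV2A 99.5% of the SV2 family in each, SYP 99.9% and 99.6% of its pair with SYNPR, and PCLO 91.4% and 91.8% of its pair with BSN. SYT1 took 83.8% and 79.7% of the UMIs of the member synaptotagmins. These intervals cover counting error only, and capture may differ between paralogs.

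**Figure D4:**
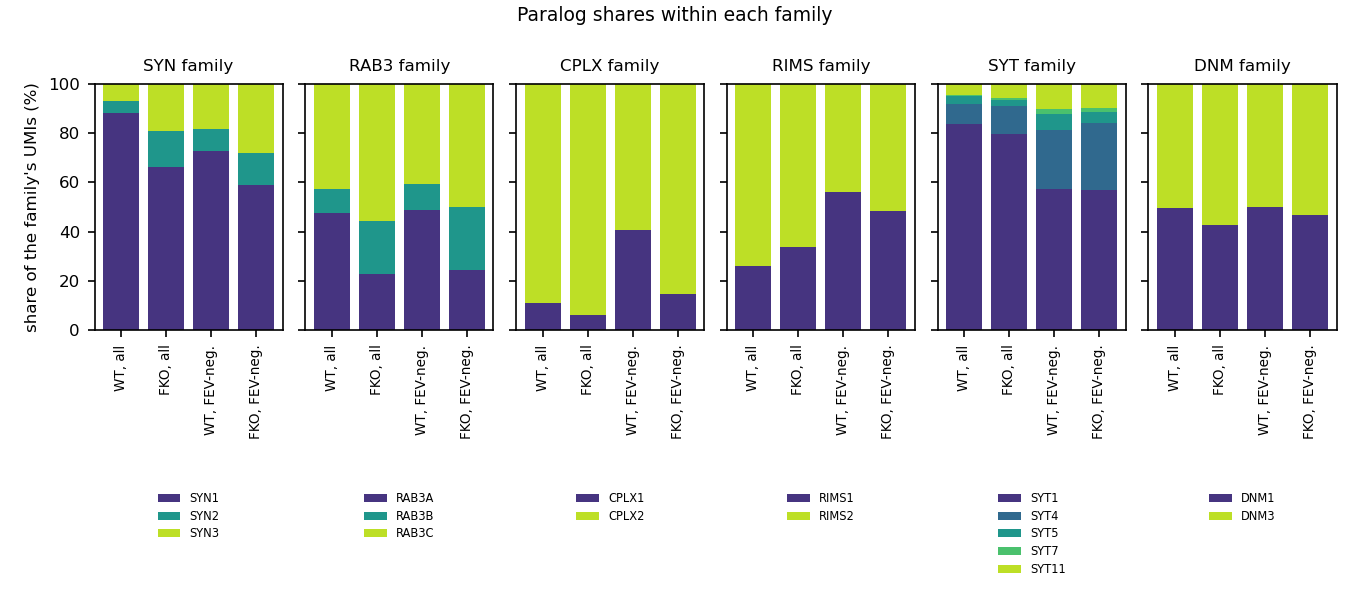
Share of the UMIs of 6 families (%) taken by each member paralog, in all kept cells and in FEV-negative barcodes of the libraries labelled WT and FKO. A family holds only its paralogs among the members. RAB3A takes 47.7% of its family in the WT-labelled library and 22.6% in the FKO-labelled library, and SYT1 falls to 57.4% and 56.9% of its family in FEV-negative barcodes.

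To ask how the machinery goes with FEV, a serotonergic marker, within a library, barcodes with at least 1 FEV UMI were set against those with 0. In the WT-labelled library these were 5603 and 118 barcodes with median depths of 12506 and 7314 UMIs, and in the FKO-labelled library 6350 and 630 barcodes with 7006.5 and 5686.5 UMIs. FEV itself was lower in the FKO-labelled library, with 909 against 1583 CPM, so the same rule reads a lower level and a lower depth there. The split separated cell types as well. Of 6 general neuronal genes, 2 were called higher in FEV-positive barcodes of the WT-labelled library and 3 in the FKO-labelled library. Their medians were 0.33 and 0.59, where 7.87% and 8.45% of all genes were called higher. STMN2 (0.81 and 0.76) and DCX (0.62 and 0.91) were called in both, and ELAVL4 lay at -0.02 and -0.09. The part of neurons against other cells in the contrast was not tested. The 6 floor plate markers, including FOXA2 at 27.2 against 3.82 CPM, were all called lower in FEV-positive barcodes of the WT-labelled library. SPON1 had 265 CPM in FEV-negative and 25.8 CPM in FEV-positive barcodes there. The other floor plate markers reached 10 CPM in FEV-negative barcodes only, so that they had to be lower in FEV-positive ones to be tested. Collagen genes summed to 1422 CPM in FEV-negative and 141 CPM in FEV-positive barcodes of the FKO-labelled library. The 6 neural progenitor genes summed to 3709 and 3356 CPM in FEV-negative and to 869 and 915 CPM in FEV-positive barcodes of the libraries labelled WT and FKO, and the part of such cells in the contrast was not tested. The 8 other serotonergic markers beside FEV were called higher in FEV-positive barcodes of both libraries. Of these, SLC6A4 and SLC18A2 reached 10 CPM in FEV-positive barcodes only, so that they had to be higher there to be tested.

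Among kept cells, FEV-positive barcodes held more of the machinery in both libraries. In the WT-labelled library 14 of 32 members were called higher and 1 lower, where 7.87% and 13.2% of 9097 genes were. In the FKO-labelled library 20 of 34 were called higher and 1 lower, where 8.45% and 16.4% of 10456 genes were. Of the called members, RIMBP2 and SYT7 in the WT-labelled library and CPLX1 and SYN2 in the FKO-labelled library reached 10 CPM in 1 class only, so that they had to be higher there to be tested. All 14 members called higher in the WT-labelled library were among the 20 called higher in the FKO-labelled library, but the like overlap over all genes was not recorded. SYT7, the 1 called lower in the WT-labelled library, was not called in the FKO-labelled library. The members' median relative log2 ratio was 0.55 and 0.77. This depended on the cells and the depth. In cells thinned to 2000 UMIs, 3 of 31 members were called higher in the WT-labelled library and 3 of 34 in the FKO-labelled library, with medians of 0.23 and 0.19, where 2.6% and 1.32% of all genes were. With all deposited barcodes the median in the WT-labelled library was -0.11, with 4 of 31 called higher and 4 lower, where 8.08% of all genes were called higher. The share of all genes called lower was not recorded there. With FEV-negative barcodes holding only 957440 UMIs in the WT-labelled library, intervals there are wide.

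CPLX2 differed most between the classes in the FKO-labelled library and was the 1 member called under every alternative in both libraries. It had 33.4 CPM in FEV-negative and 129 CPM in FEV-positive barcodes of the WT-labelled library (1.89, interval 1.39 to 2.44), and 46.9 and 299 CPM in the FKO-labelled library (2.63, interval 2.42 to 2.85). CPLX1 did not follow it in the WT-labelled library, with 23.0 and 15.8 CPM (-0.60), but was called higher in the FKO-labelled library, with 8.15 and 18.8 CPM (1.16). SYT1 had 659 and 2138 CPM in the WT-labelled library (1.64) and 874 and 3028 CPM in the FKO-labelled library (1.75). SYT1 still led the members in FEV-negative barcodes, ahead of VAMP2, which had 412 and 513 CPM there. The rest of the fusion machinery stood closer to the median: SNAP25 lay at 0.36 and 0.57, VAMP2 at 0.41 and 0.58, and STX1A at 0.52 and 0.83, of which STX1A in the FKO-labelled library was called.

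At the active zone, RIMS2 had 26.1 and 116 CPM in FEV-negative and FEV-positive barcodes of the WT-labelled library (2.09) and 84.1 and 215 CPM in the FKO-labelled library (1.31). RIMBP2 had 5.22 and 18.6 CPM (1.78, from 5 UMIs in FEV-negative barcodes, and -0.29 with all deposited barcodes) and 22.4 and 63.4 CPM (1.46). PPFIA2 (1.20 and 0.80) and PCLO (0.72 and 0.86) were called in both libraries as well. The paralogs again parted, since RIMS1 lay at 0.21 and 0.41 and was called in neither library. CADPS2 had 23.4 CPM in FEV-negative and 10.5 CPM in FEV-positive barcodes of the FKO-labelled library (-1.20) and was the 1 member called lower there. In the WT-labelled library it had 10.4 and 5.71 CPM (-0.93, from 10 UMIs) and was not called.

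Among kept cells, the vesicle protein genes tested lay above the median in both libraries. The 6 tested in each, SYN1, SYP, SV2A, RAB3A, RAB3B and RAB3C, were called higher in both, with relative log2 ratios from 0.61 to 0.78 in the WT-labelled library and from 0.69 to 1.10 in the FKO-labelled library, where 7.87% and 8.45% of all genes were called higher. In the WT-labelled library SYP (-0.62), SV2A (-0.26) and RAB3B (-0.033) lay below the median with all deposited barcodes, SYP (-0.042) in thinned cells and SYN1 (-0.11) in cells of 3000 to 10000 UMIs. RAB3A, the gene lower in the FKO-labelled library, had 123 CPM in FEV-negative and 205 CPM in FEV-positive barcodes of the WT-labelled library, and 89.7 and 164 CPM in the FKO-labelled library. RAB3A and RAB3B thus had the same direction between FEV classes and opposite directions between the libraries. SNAP91 (1.07 and 1.08) and DNM3 (0.59 and 0.85) were the endocytosis genes called in both.

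Member synaptotagmins other than SYT1 were called higher in neither library. SYT4 had 273 CPM in FEV-negative and 200 CPM in FEV-positive barcodes of the WT-labelled library (-0.51), and 419 and 401 CPM in the FKO-labelled library (-0.11). SYT7 was called lower in the WT-labelled library, with 26.1 and 9.41 CPM from 25 and 705 UMIs (-1.53, but 0.73 at 5% mitochondrial UMIs), and lay at 0.26 in the FKO-labelled library, with 30.1 and 37.1 CPM. SYT5 lay at 0.13 and 0.47 and SYT11 at -0.08 and 0.45. Accordingly SYT1 took 57.4% and 56.9% of member synaptotagmin UMIs in FEV-negative barcodes, below its 83.8% and 79.7% over all kept cells. SYT4 took 23.7% and 27.3% in FEV-negative barcodes, against 7.95% and 11.1% over all kept cells.

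**Figure D5:**
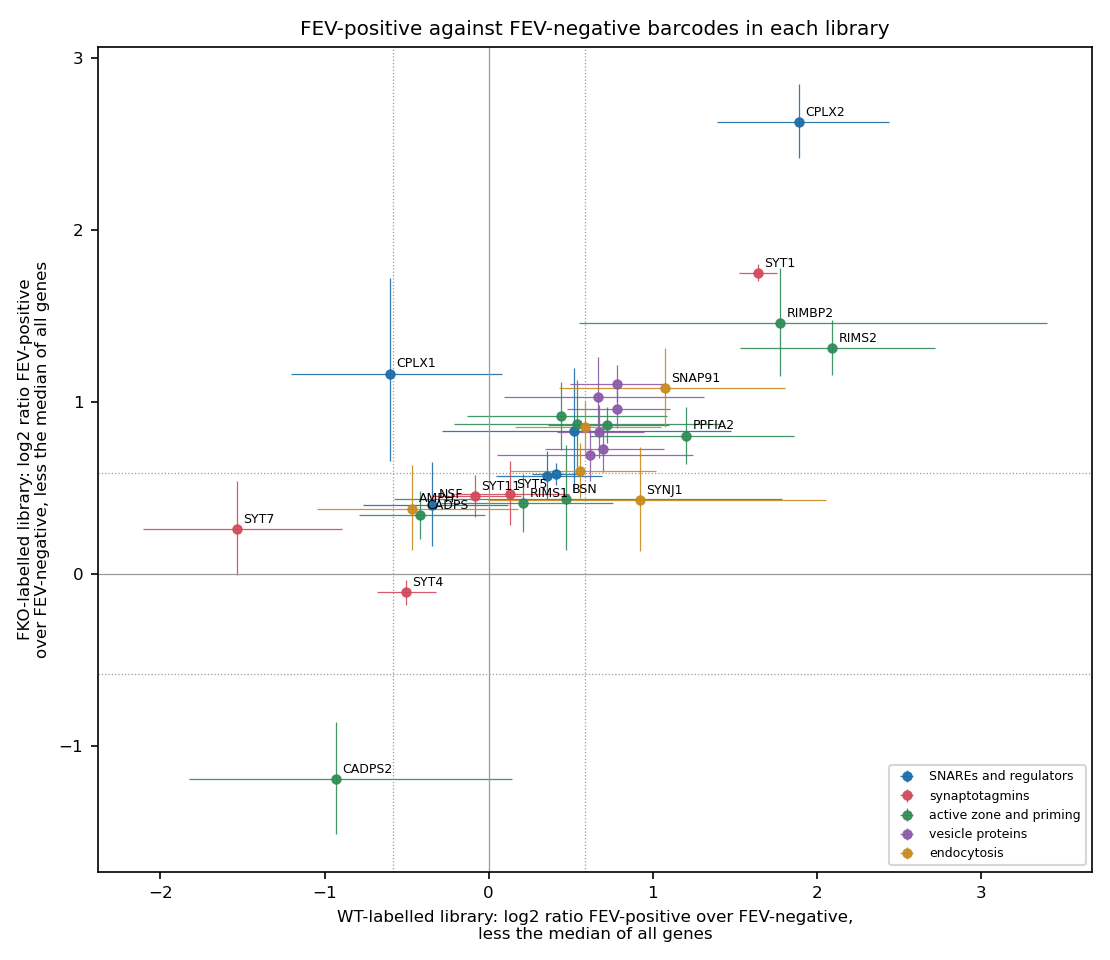
Relative log2 ratio of FEV-positive over FEV-negative barcodes in the FKO-labelled library against that in the WT-labelled library for the 32 members tested in both, with exact 95% counting intervals and dotted lines at 1.5-fold. Of these, 24 lie above the median of all genes in both libraries, CPLX2 and SYT1 are far out in both, and SYT4 and CADPS2 are below it in both. Points in the crowded centre carry no name.

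The FEV contrast depended on which cells were counted. Without the FEV-negative barcodes that held at least 5 cycling or 10 collagen UMIs, 12 of 32 members were called higher in the WT-labelled library and 16 of 34 in the FKO-labelled library, where 7.27% and 5.3% of all genes were. With all deposited barcodes, 778 and 1313 of them FEV-negative, 4 of 31 and 17 of 34 were, where 8.08% and 7.08% of all genes were, and SYT1 lay at -0.14 in the WT-labelled library. REST, whose element was searched for above, had 23.0 CPM in FEV-negative and 3.60 CPM in FEV-positive barcodes of the WT-labelled library, and 43.6 and 8.59 CPM in the FKO-labelled library. SYN1, which holds the exact match, had 25.1 and 41.5 CPM (0.67) and 42.04 and 88.5 CPM (1.03) in the same barcodes. Whether these values are linked was not tested.

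Genes outside the members showed how far the pattern extends. Of 55 other presynaptic genes, 46 were tested between the libraries, and 19 were called higher and 1 lower, with a median of 0.50, where 17.9% and 23.3% of all genes were called. The highest were DOC2B, a calcium sensor (1.997), which reached 10 CPM through the FKO-labelled library only (3.64 and 20.2 CPM), the scaffold kinase CASK, with 79.3 and 404 CPM (1.88), and SYT16 (1.46), and the 1 lower was LIN7B (-0.97). With the median of 5 length ranges as zero, 18 were called higher and 1 lower, where 16.6% of all genes were called higher and the share called lower was not recorded. The median of the 46 was 0.31 there, and LIN7B (-0.33) lost its call while LIN7A (-0.60) gained one. Between FEV classes 9 of 39 were called higher and 1 lower in the WT-labelled library, and 21 of 46 higher and 2 lower in the FKO-labelled library, where 7.87% and 13.2%, and 8.45% and 16.4%, of all genes were. The highest were STXBP5 (2.35, from 2 UMIs in FEV-negative barcodes), LIN7A (0.91) and PPFIA3 (0.90) in the WT-labelled library, and DOC2A (1.13), SYNGR3 (1.12) and SYT13 (1.08) in the FKO-labelled library. In FEV-negative and FEV-positive barcodes of these libraries STXBP5 had 2.09 and 11.1 CPM and DOC2A 7.39 and 16.7 CPM. Both reached 10 CPM in FEV-positive barcodes only, so that they had to be higher there to be tested. STXBP6, also known as amisyn, was lower in both (-3.61 and -2.88), and SYNGR1 in the FKO-labelled library (-0.81). STXBP6 had 36.6 and 52.5 CPM in FEV-negative and 3.12 and 7.37 CPM in FEV-positive barcodes of the libraries labelled WT and FKO. It reached 10 CPM in FEV-negative barcodes only, so that it had to be lower in FEV-positive ones to be tested. Of 32 SNAREs and fusion factors of general membrane traffic, 28 were tested between the libraries, of which 1 was called higher, STX16 (0.98), and 5 lower, led by STX8 (-1.04), NAPA (-0.78) and BET1 (-0.72), with a median of -0.33. Their share of lower calls is below the 23.3% of all genes. In FEV-positive barcodes 2 of 29 were called higher and 7 lower in the WT-labelled library, where 7.87% and 13.2% of all genes were. In the FKO-labelled library 1 of 30 was called higher and 6 lower, where 8.45% and 16.4% of all genes were. The share called lower was thus above that of all genes in the WT-labelled library and near it in the FKO-labelled library. SNAP23 (-1.60 and -0.70), STX10 (-0.86 in each), VAMP3 (-0.81 and -0.96) and STX17 (-0.79 and -0.72) were lower in both, and SYPL1 was the lowest in the FKO-labelled library (-1.24). SNAP23 had 13.6 and 12.5 CPM in FEV-negative and 4.66 and 7.92 CPM in FEV-positive barcodes of the libraries labelled WT and FKO. SYPL1 had 15.0 and 6.56 CPM in the FKO-labelled library. Both reached 10 CPM in FEV-negative barcodes only, so that they had to be lower in FEV-positive ones to be tested. STX12 was higher in both (0.64 and 0.69) and STX7 in the WT-labelled library (0.63). The median length of this list is 45.9 kb, against 137 kb for the members.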

How the data were processed

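The authors made the deposited counts of UMIs per gene and barcode from 10x Genomics 3' (v3) libraries with Cell Ranger (7.1.0 in the file header, 7.0 in the submitters' processing notes) on GRCh38, with no normalization; the annotation and the use of intronic reads are not given in the sources used here. Kept cells had 1000 or more UMIs, 500 or more genes and no more than 10% mitochondrial UMIs. Scrublet (scanpy 1.11.5) scored doublets; its own threshold marked 1 barcode in each library, so the highest scores were removed at 0.8% per 1000 barcodes (977 and 620). CPM were computed from UMIs summed over cells. Ratios carry exact conditional 95% intervals, levels exact Poisson and shares Clopper-Pearson ones, all for counting error only, and a share of 0 is limited by 3 counts. PCR duplicates are removed by the UMI, but cells of 1 library are not replicates, so no test was made. Thinning used a fixed seed. Gene lengths were matched by Ensembl identifier for 99.5% of tested genes. The ratio was tested on simulated data. All 38 members are named, other genes by the highest and lowest 3 called per list, and SYN1's REST element, the TIMP genes and nuclear RNAs were singled out after values were seen. The members and lists were chosen with earlier results of these data known. Alternatives changed the limits on cells, doublets, depth, pooling, scaling, the filter on low values and the zero point. Bulk RNA-seq was not used here. Depth per library is given in the report.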

Additional observations from a re-analysis of the deposited data

Results flagged for a closer look

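CADPS, the priming factor of dense-core vesicles, had opposite directions between FEV classes in the libraries. Its relative log2 ratio of FEV-positive over FEV-negative barcodes was -0.42 (interval -0.79 to -0.02) in the WT-labelled library, with 61.6 CPM in FEV-negative and 48.0 CPM in FEV-positive barcodes, and 0.34 (interval 0.20 to 0.48) in the FKO-labelled library, with 113 and 147 CPM. It was called in neither library, and the difference between the libraries was not tested.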

How the results depend on the processing

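Of the 18 members called between the libraries, RIMBP2, UNC13A, PCLO and RAB3B kept the call under all 16 alternatives, which called 11 to 27 of the members higher. SYN2, SYN3, SYT7 and BSN kept it under 15, since they stood under 50 CPM in both libraries and were not tested at that limit. Their lowest relative log2 ratios were 2.15, 1.94, 1.34 and 0.78. Without the median taken off, 27 of 34 members were higher and 0 lower, where 43.5% of all genes were higher, and with the median of 5 length ranges as zero 11 were higher and 0 lower, where 16.6% were. Shares of all genes called lower were not recorded for these settings. Both zero points by gene length (a limit at 100 kb, and 5 ranges) were alternatives chosen once the data were known. Between FEV classes 1 of 15 calls in the WT-labelled library (CPLX2) and 3 of 21 in the FKO-labelled library (CPLX2, SYT1 and RIMS2) were kept under all 15 alternatives. In the WT-labelled library the members called higher numbered 9 of 30 at 5% mitochondrial UMIs (4.96% of all genes), 8 of 33 at 20% (6.15%), 4 of 31 with all deposited barcodes (8.08%), 3 of 31 in cells thinned to 2000 UMIs (2.6%), 9 of 17 at a CPM of at least 50 (7.96%) and 6 of 31 in cells of 3000 to 10000 UMIs (4.33%). Those called lower numbered 4 at 20%, 4 with all barcodes, 2 by the mean of per-cell CPM, 0 at a CPM of at least 50 and 2 in cells of 3000 to 10000 UMIs. In the FKO-labelled library 3 of 34 were higher in thinned cells (1.32% of all genes), and 0, 2 and 0 were lower at 5% mitochondrial UMIs, a CPM of at least 1 and of at least 50. The share of all genes called lower was not recorded under these alternatives of the FEV contrast. It was 13.2% and 16.4% at the main settings, and the counts of lower calls are not read further. Thinning counts FEV anew, which makes the FEV-negative class 615 and 1649 barcodes, and a higher CPM limit tests fewer genes. For the other shifts the cause was not tested.

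Among called members, directions reversed in the WT-labelled library only, in the FEV contrast. SYT7 went to 0.73 at 5% mitochondrial UMIs, which leaves 34 FEV-negative barcodes. With all deposited barcodes SYT1 went to -0.14, RIMBP2 to -0.29, SYP to -0.62, SV2A to -0.26, RAB3B to -0.033 and DNM3 to -0.0011. SYP lay at -0.042 in thinned cells and SYN1 at -0.11 in cells of 3000 to 10000 UMIs. No paired analysis was possible because each group has 1 library. Depth limits the FEV-negative class of the WT-labelled library most, where 118 barcodes hold 957440 UMIs.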
